A study of Mus musculus with 60 samples.

Results

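Gene expression in mouse primary cortical cultures was compared between DIV3 and DIV10 (days in vitro) in neurons that carried scrambled control (SC) siRNA and received BDNF. The members are the 6 libraries whose labels give SC siRNA with BDNF at these times, 3 at each time, out of 60 samples in the series, 48 of which were measured by short-read RNA-seq. The series was made to study paxillin, a focal adhesion adaptor protein, in neurons, and SC siRNA serves there as the control for paxillin siRNA. Here it is common to both sides of the comparison, as is BDNF.

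Cells from the cerebral cortex of WT mouse embryos at E18 were grown in neurobasal medium with Gem21 NeuroPlex, as the labels give it; the text of the study also names rat embryos and another embryonic age, and the labels were followed. SC siRNA and 20 ng/ml BDNF were both added at DIV2, so the cells at DIV10 had been in culture and in contact with BDNF and siRNA for longer than those at DIV3, and these times cannot be told apart. Cultures 1, 2 and 3 gave a library at DIV3 and at DIV10, and values below are given in that order. The labels do not say whether the cultures came from separate litters, and the p-values measure only the spread between libraries. That spread was taken within all groups of the short-read libraries, those with paxillin siRNA included, and not from the libraries compared alone. For reference, 4 libraries of the same treatment at DIV5 and 6 SC siRNA libraries without BDNF at DIV3 and DIV10 were used. The latter are from cultures 1, 2 and 3 at DIV3 and from cultures 1, 3 and 6 at DIV10, and their values are given in that order.

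BDNF is a secreted neurotrophin that binds the receptor tyrosine kinase TrkB, the product of Ntrk2. TrkB feeds the ERK pathway, which induces immediate early transcription factors such as the EGR family, and their own repressors, such as NAB2 and the dual specificity phosphatases, limit the response. In culture, cortical neurons extend axons and dendrites, form synapses, and replace embryonic ion channels and transmitter transporters with postnatal ones, while glia that were plated with them divide and differentiate.

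The authors deposited expression as TPM, a level that is corrected for the length of the transcript and whose total is the same for all libraries. Each library sums to 1000000, so the values do not give its depth or counting error. The study states a minimum number of reads per sample, but not the depth of each library. The libraries held from 20878 to 22997 genes with a nonzero value. Differences are on the log2(TPM + 1) scale, which makes changes of weakly expressed genes look smaller, and were tested with limma over 14250 genes, with calls at a Benjamini-Hochberg adjusted p under 0.05. The median difference of all genes tested was -0.069. The library of culture 3 at DIV10 stood apart: over all genes tested it correlated at r = 0.908 and 0.917 with cultures 1 and 2, which correlated at 0.992 with each other. At DIV3 the corresponding values for culture 3 were 0.969 and 0.968, against 0.988. The library numbers of culture 3, 8 at DIV3 and 10 at DIV10, are from another range than those of cultures 1 and 2, which run from 75 to 80 with DIV5 included, and the part of this was not tested. Several, but not all, of the results that depend on culture 3 are also given without it.

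The label of the cells is cortical neuron, and marker genes of neurons were present in every library. The summed level of 8 neuron markers, among them Tubb3 and Map2, was 2204, 2348 and 2438 TPM at DIV3 and 1467, 1451 and 1133 TPM at DIV10. Markers of glia were present as well, and their levels were higher at DIV10. The sum of 9 astrocyte markers went from 887, 1005 and 326 TPM to 7041, 4730 and 2021 TPM. For 6 markers of oligodendrocyte precursors it went from 1588, 1780 and 755 TPM to 6912, 8293 and 2190 TPM. Neither pair of groups overlapped, and culture 3 was the lowest of its group in both lists at both times. In bulk RNA, fewer cells of a type and less RNA per cell cannot be told apart, and the part of these cells in the gene changes below was not tested. Endothelial and mural markers summed to at most 24.6 TPM in any of the 6 libraries, and red blood cell markers to at most 6.60 TPM.

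**Figure D1:**
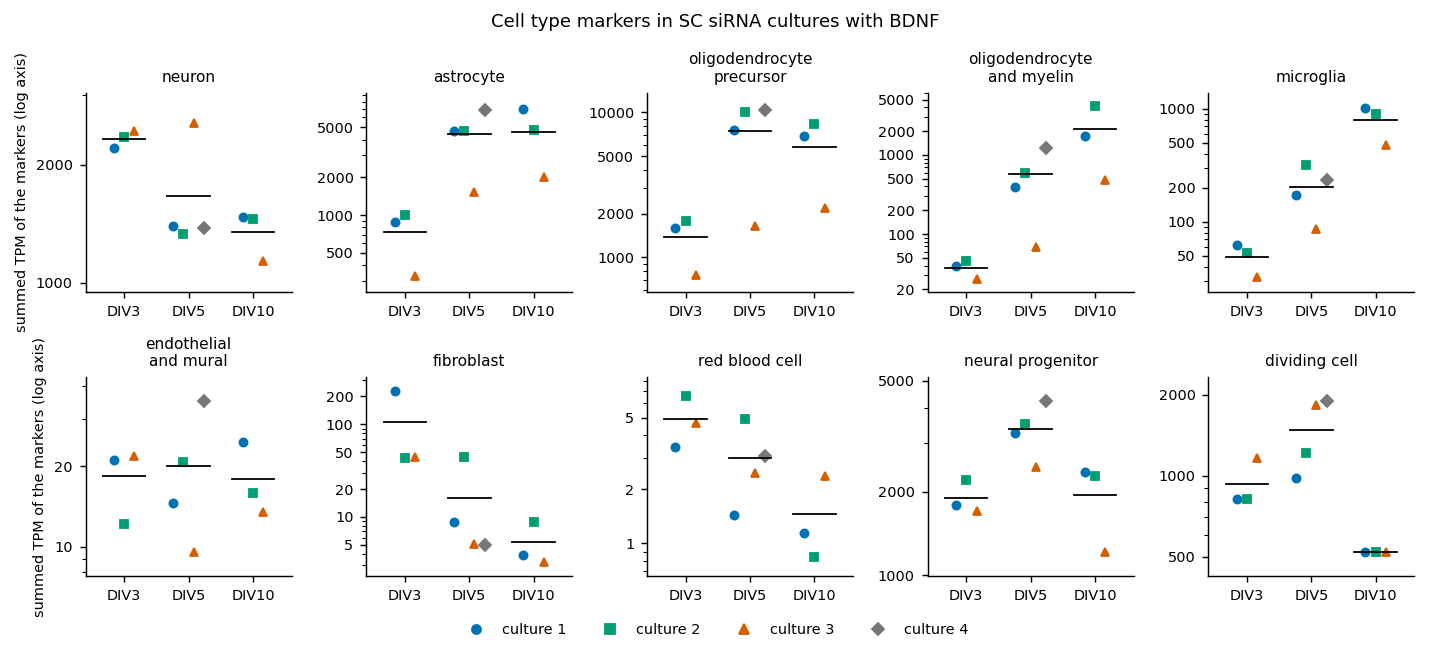
Summed TPM of each list of cell type markers (log axis) in the libraries with SC siRNA and BDNF at DIV3, DIV5 and DIV10, with 1 point per library and the group mean as a line. Astrocyte, oligodendrocyte and microglia markers were higher at DIV10 than at DIV3 in every culture, neuron markers were lower, and fibroblast markers fell from between 43.7 and 229 TPM to between 3.26 and 8.87 TPM.

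Between DIV3 and DIV10, 2550 genes rose and 3195 fell, which are 17.9% and 22.4% of the genes tested. The counts in the lists below are to be read against these shares. A list called at about these shares changed no more often than all genes did. The 3 DIV3 and 3 DIV10 libraries did not overlap in 87.0% of the called genes, against 45.1% of all genes tested. Of the called genes, 1539 were higher by more than 1 on the log2 scale and 862 lower by more than 1. Large rises outnumbered large falls: 136 called genes were above 3 and 16 below -3. Without the DIV10 library of culture 3, 2584 genes rose and 3459 fell, and in cultures 1 and 2 alone the numbers were 1891 and 2634.

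The largest rises were those of genes of myelin and of oligodendrocytes, the glia that ensheathe axons. Mag, a myelin glycoprotein that faces the axon, went from 0.296, 0.189 and 0.0169 TPM to 155, 478 and 16.5 TPM (6.56, SE 1.16, adjusted p = 3.08e-05). Its highest DIV10 level was in culture 2 and the lowest in culture 3, and that lowest level was above all of DIV3. All 6 of the 6 oligodendrocyte and myelin markers tested rose, with a median of 4.87, where 17.9% of all genes did. Mobp, another myelin protein, was listed at 0 TPM in cultures 1 and 2 at DIV3 and was at 68.7, 306 and 1.27 TPM at DIV10. Its call was lost in a fit of only the 6 libraries (adjusted p = 0.0616). Mog, a myelin surface glycoprotein chosen after its values were seen, had the smallest rise of the list (1.22), with 8.26 TPM in culture 3 at DIV10 against 7.40, 12.2 and 11 TPM at DIV3. It was not called in 4 of the 15 alternatives, which were the fits of only the 6 libraries with and without the block and those without culture 2 of DIV10 or culture 1 of DIV3, with adjusted p up to 0.35. Cldn11, which seals myelin layers, Bcas1, a gene of newly formed oligodendrocytes, Lgi3, a secreted glycoprotein, and Ptgds, a prostaglandin D synthase, also stood among the 8 largest rises, with differences from 5.23 for Bcas1 to 6.18 for Cldn11. Lcn2, a secreted iron transport protein made by reactive astrocytes, was also among these 8 and differed widely between cultures, at 564, 118 and 3.06 TPM at DIV10 and at most 1.59 TPM at DIV3.

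All 9 microglia markers tested rose, with a median of 3.73. C1qa, a subunit of the complement starter C1q, was at 20.6, 21 and 11.7 TPM at DIV3 and at 432, 367 and 138 TPM at DIV10 (3.95, SE 0.61, adjusted p = 3.78e-06). Astrocyte markers rose in 6 of 9, with none falling, and the median was 2.62. Gja1, the astrocyte gap junction protein connexin 43, went from 30.8, 30.4 and 13.8 TPM to 504, 418 and 211 TPM (3.86, SE 0.79, adjusted p = 0.00019). The groups did not overlap for either gene, and culture 3 held the lowest level at both times. Of the 6 precursor markers, Cspg4, Gpr17 and Sox10 rose, which became 5 without the DIV10 library of culture 3 and 6 in a fit of the 6 libraries blocked on the culture number. Without the DIV3 library of culture 3, Gpr17 lost its call, with an adjusted p of 0.120 at most over the alternatives.

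Of 4 fibroblast markers tested 3 fell, against 22.4% of all genes tested, and Dcn was not called (-0.50). The 3 were the collagens Col1a1, Col1a2 and Col3a1. Col1a1 went from 140, 24.5 and 25.5 TPM to 2.16, 5.24 and 2.01 TPM (-3.55, SE 0.97, adjusted p = 0.00348). Col1a2 lost its call without culture 1 of DIV3, with an adjusted p of 0.113. Endothelial and mural markers had no common direction, with 1 rise and 2 falls in 5 and a median of 0.094. The mural cell genes Rgs5, a regulator of G-protein signalling, and Kcnj8, a potassium channel, fell by 2.53 and by 1.28. Pdgfrb, a PDGF receptor of mural cells, rose by 1.36, from 8.33, 4.61 and 3.69 TPM to 21.2, 13.6 and 11.7 TPM. Its call was lost without culture 1 of DIV10, without culture 3 of DIV3 and in cultures 1 and 2 alone, with adjusted p up to 0.0823. Among progenitor markers, Eomes, a transcription factor of intermediate progenitors, fell from 13.5, 11.5 and 19.5 TPM to 0.421, 0.230 and 1.02 TPM (-3.35, SE 0.43, adjusted p = 1.94e-07). Only 2 of 9 progenitor markers were called, and Sox2, a factor of neural stem cells and glia, rose by 1.05; that call was lost without the DIV3 library of culture 3, where 1 marker remained called, while 4 were called with the culture number as a block in the 6 libraries. Of 12 genes of dividing cells 4 fell, against 22.4% of all genes tested, among them Pcna and Rrm2, which serve DNA replication. The median was -0.94. Mki67, the antigen of cycling cells, was at 98.4, 90.4 and 9.51 TPM at DIV10 against 117, 120 and 107 TPM at DIV3, and was not called (adjusted p = 0.24). The 4 calls became 1 without the DIV3 library of culture 3 and 0 in cultures 1 and 2 alone.

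Genes of young neurons fell as a group. Among 18 genes of immature neurons and axon growth 15 fell and none rose, where 22.4% of all genes fell, and the median was -1.26. Sox11, a transcription factor of newborn neurons, was at 1558, 1516 and 2160 TPM at DIV3 and at 214, 179 and 246 TPM at DIV10 (-3.02, SE 0.33, adjusted p = 1.36e-08). Cd24a, a surface glycoprotein of newborn neurons, went from 2617, 3070 and 2437 TPM to 565, 674 and 563 TPM (-2.17, SE 0.29, adjusted p = 4.63e-07). Dcx, the microtubule-binding protein of migrating neurons, was chosen after its values were seen, and went from 330, 326 and 458 TPM to 100, 65.7 and 92.7 TPM (-2.10, SE 0.31, adjusted p = 2.06e-06). In all 3 genes the levels at each time lay close together, culture 3 at DIV10 included, and the groups were apart.

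Transcription factors of cortical projection neurons fell in 14 of 20, against 22.4% of all genes tested, with none rising and a median of -1.38. Neurod6, a bHLH factor of young pyramidal neurons, was at 930, 1207 and 2267 TPM at DIV3 and at 51.1, 93.7 and 246 TPM at DIV10 (-3.68, SE 0.71, adjusted p = 9.19e-05). The related Neurod1 went from 104, 96.2 and 112 TPM to 12.5, 10.8 and 17.7 TPM (-2.87, SE 0.32, adjusted p = 2.24e-08). Culture 3 was the highest of its group for both genes at both times. The 6 factors that were not called were Bcl11b, Fezf2, Foxp1, Nfia, Rorb and Tle4, several of which mark deep or specific layers.

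Receptors and ligands of axon guidance fell in 12 of 25, against 22.4% of all genes tested, with none rising and a median of -0.96. The receptor Robo1, which binds Slit proteins, went from 17.1, 15.9 and 9.80 TPM to 1.86, 1.53 and 0.224 TPM (-2.85, SE 0.30, adjusted p = 7.15e-09). Epha3, a receptor for ephrins, went from 15.4, 20.3 and 12 TPM to 2.51, 1.97 and 1.25 TPM (-2.53, SE 0.32, adjusted p = 1.73e-07). No level of DIV10 reached those of DIV3 in either gene. Without the DIV10 library of culture 3, 10 of these genes fell and 2 rose.

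**Figure D2:**
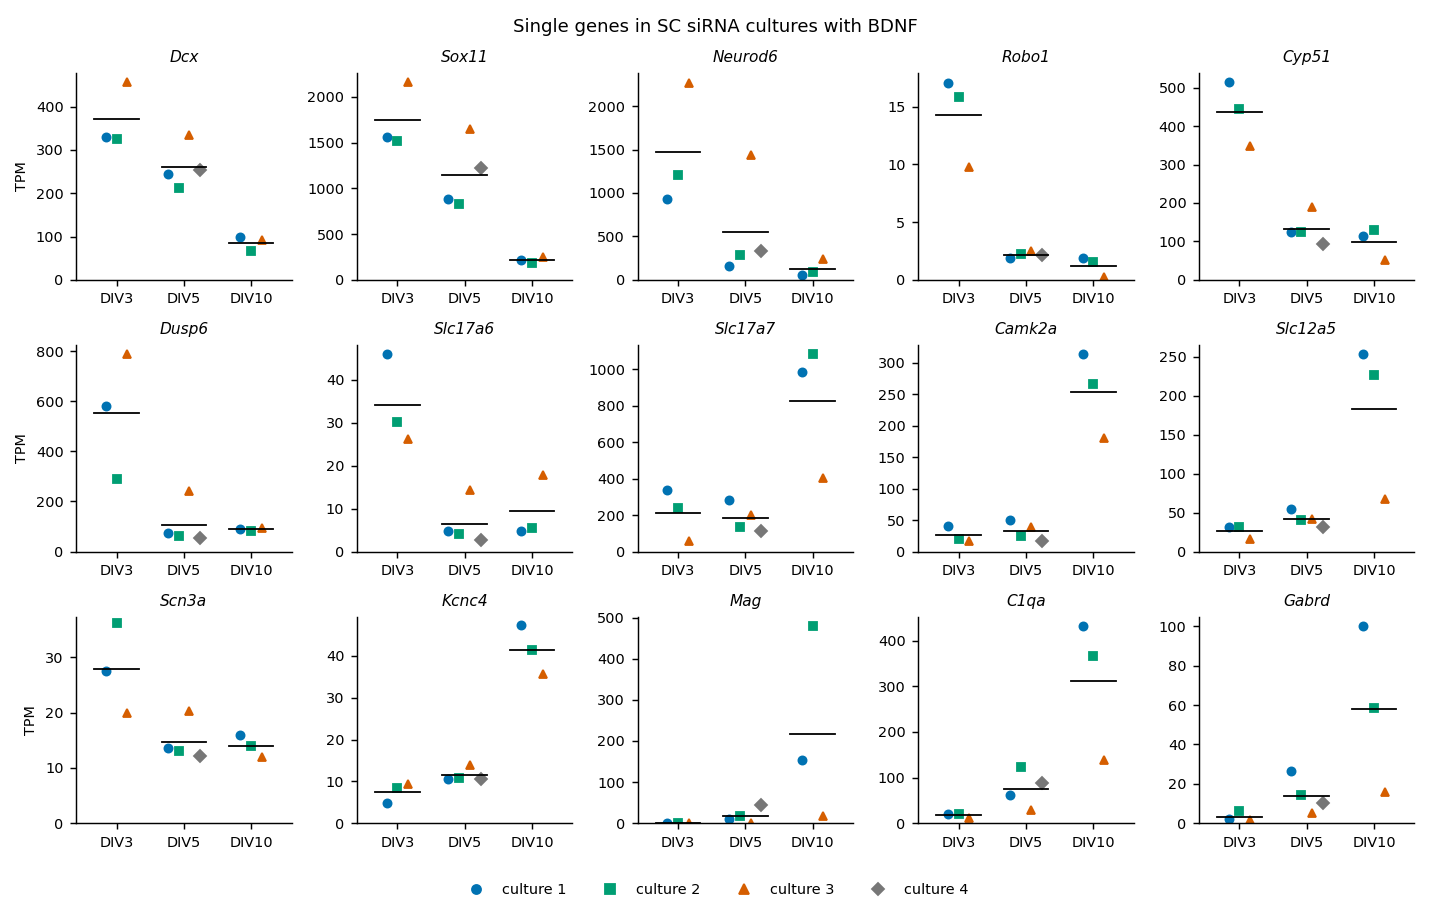
Level (TPM, linear axis from 0) of single genes in each library with SC siRNA and BDNF at DIV3, DIV5 and DIV10, with the culture number marked by the symbol and the group mean by a line. Sox11 stayed between 834 and 1649 TPM at DIV5 and was at 246 TPM or less at DIV10, while Camk2a was at 50.1 TPM or less at DIV5 and at 180 TPM or more at DIV10.

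Microtubule proteins and neurofilaments moved both ways, 2 up and 6 down of 12, where 17.9% and 22.4% of all genes tested did. Map1a, a microtubule-associated protein of mature dendrites and axons, went from 325, 251 and 246 TPM to 1434, 1490 and 655 TPM (2.04, SE 0.35, adjusted p = 1.9e-05). Tubb3, neuronal beta tubulin, went from 1450, 1604 and 1561 TPM to 717, 711 and 457 TPM (-1.32, SE 0.39, adjusted p = 0.00722), and missed the threshold in cultures 1 and 2 alone. Map2, the dendritic microtubule protein, fell by 1.05 (adjusted p = 0.0244), a call that was lost without culture 2 or culture 3 of DIV10 and without culture 1 or culture 3 of DIV3, with adjusted p up to 0.142. The number of calls in this list was 4 without the DIV3 library of culture 3, where 2 genes rose and 2 fell, 5 without culture 1 or culture 2 of DIV10, and 3 in cultures 1 and 2 alone. Among the 8 neuron markers 3 rose and 3 fell, and without culture 2 of DIV10 1 rose and 2 fell.

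Genes of the synaptic vesicle and of transmitter release rose in 10 of 21, against 17.9% of all genes tested, with none falling and a median of 0.61. Sv2b, a vesicle glycoprotein, went from 0.571, 2.27 and 0.358 TPM to 28, 26.2 and 6.96 TPM (3.27, SE 0.55, adjusted p = 1.34e-05). Syt2, a fast calcium sensor of release, was at 0.461 TPM or less at DIV3 and at 41.8, 26.4 and 0.815 TPM at DIV10 (3.34, SE 0.60, adjusted p = 3.19e-05). Its level in culture 3 at DIV10 was still above DIV3, by far less than in the other cultures. Snap25, the SNARE protein of the plasma membrane, was at 30.1, 34.4 and 41.6 TPM at DIV3 and at 52.7, 48 and 61.9 TPM at DIV10 (0.61, SE 0.25, adjusted p = 0.0451). The groups did not overlap, but the call was lost without any 1 of the libraries other than culture 3 of DIV3, with adjusted p up to 0.154 over all alternatives. In a fit of only the 6 libraries compared, 3 genes of the list rose.

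The vesicular glutamate transporters moved in opposite directions. Slc17a7 (VGLUT1), the transporter of mature cortical excitatory terminals, went from 340, 239 and 59.5 TPM to 988, 1084 and 404 TPM (2.15, SE 0.53, adjusted p = 0.00127). Slc17a6 (VGLUT2), which is prominent in young cortical neurons, went from 45.9, 30.2 and 26.2 TPM to 4.70, 5.45 and 17.9 TPM (-1.95, SE 0.50, adjusted p = 0.00211). For Slc17a7 culture 3 was lowest at both times, and for Slc17a6 its DIV10 level was the highest of that group, with no overlap in either gene. The call of Slc17a7 was lost in a fit of only the 6 libraries compared (adjusted p = 0.0674).

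Inhibition and calcium signalling showed rises in single genes within lists that moved little. Slc12a5, the potassium-chloride cotransporter KCC2 that lowers chloride in maturing neurons, went from 30.9, 32 and 15.5 TPM to 253, 226 and 67.1 TPM (2.61, SE 0.43, adjusted p = 1.23e-05). Gabrd, the delta subunit of extrasynaptic GABA-A receptors, went from 2.33, 6.31 and 1.48 TPM to 100, 58.6 and 15.7 TPM (3.57, SE 0.54, adjusted p = 2.72e-06). These were the 2 of 16 genes for GABA receptors and chloride transporters that were called, with a list median of 0.039; without the DIV10 library of culture 3, 5 rose, and 4 genes were called with the culture number as a block. Camk2a, the alpha subunit of calcium/calmodulin kinase II, went from 40.9, 20.1 and 16.7 TPM to 314, 267 and 180 TPM (3.31, SE 0.42, adjusted p = 1.7e-07). Its inhibitor Camk2n1 went from 248, 173 and 105 TPM to 831, 666 and 848 TPM (2.23, SE 0.27, adjusted p = 9.55e-08). The DIV10 levels of both genes were above every DIV3 level by a wide margin, and 3 of 12 genes of this list rose and 1 fell. The latter was Camkk1, a kinase that activates other calmodulin kinases, which fell by 0.66 and lost its call without the DIV3 library of culture 3 (adjusted p = 0.0886) and in cultures 1 and 2 alone (0.0835).

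Sodium channel genes moved in both directions. Scn2b, a subunit that assists the pore, went from 46.4, 41.0 and 25.6 TPM to 223, 195 and 47.4 TPM (1.78, SE 0.48, adjusted p = 0.00327), and missed the threshold in a fit of only the 6 libraries (adjusted p = 0.0736). Culture 3 at DIV10 lay just above the highest DIV3 level. Scn3a, the embryonic alpha subunit, went from 27.6, 36.2 and 19.9 TPM to 16, 14 and 11.9 TPM (-0.92, SE 0.21, adjusted p = 0.000777). In all, 3 of 7 sodium channel genes rose and 2 fell; without culture 2 of DIV10, 3 were called. Voltage-gated potassium and HCN channels rose in 7 of 21, against 17.9% of all genes tested, with none falling and a median of 0.57. Kcnc4, a voltage-gated potassium channel subunit, went from 4.89, 8.41 and 9.28 TPM to 47.2, 41.3 and 35.6 TPM (2.34, SE 0.33, adjusted p = 9.89e-07). Kcnip2, which modulates A-type channels, rose by 2.56. The list depended on culture 3: 13 genes rose without its DIV10 library and 12 in cultures 1 and 2 alone.

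Few genes for glutamate receptors were called. Of 12 genes for AMPA and kainate receptors and their partners, Cacng3, an AMPA receptor partner, rose, and Gria2, the subunit that limits calcium entry, and Shisa9, another partner, fell, and 9 were not called. Cacng3 lost its call without culture 1 or culture 2 of DIV10 or culture 3 of DIV3, and Shisa9 without culture 3 of DIV10 or culture 1 of DIV3, and also in the blocked fit of the 6 libraries. Grin1, the obligatory NMDA receptor subunit, was at 284, 192 and 138 TPM at DIV3 and at 480, 379 and 134 TPM at DIV10. These groups overlapped through culture 3, and Grin1 was not called (0.56, SE 0.48, adjusted p = 0.367). Of 7 NMDA receptor subunits 1 rose, Grin2d, which was chosen after its values were seen and went from 8.32, 10.0 and 3.40 TPM to 46.8, 24.7 and 9.53 TPM (1.61, SE 0.53, adjusted p = 0.0141). These groups overlapped through culture 3, and the call was lost without culture 1 of DIV10 or culture 3 of DIV3 and in a fit of only the 6 libraries, with adjusted p up to 0.134. Of 5 metabotropic receptors 1 fell, Grm5, also chosen after its values were seen (-0.82, adjusted p = 0.0354). It was not called in 7 of the 15 alternatives, among them those without culture 3 of DIV10 or culture 1 or culture 2 of DIV3, with adjusted p up to 0.316. Grm2 of the same list had a difference of 0.10 and no call. Among postsynaptic scaffold proteins 3 of 13 rose and 1 fell, where 17.9% and 22.4% of all genes tested did. Dlgap3, which links PSD-95 to Shank proteins, went from 14.3, 16.7 and 12.9 TPM to 75.1, 66.9 and 33.2 TPM (1.85, SE 0.35, adjusted p = 8.18e-05). Homer1, the scaffold that binds metabotropic receptors, went from 30.8, 19.0 and 44.6 TPM to 7.04, 6.44 and 7.49 TPM (-1.95, SE 0.28, adjusted p = 1.24e-06). Its DIV10 levels were nearly equal, while those of DIV3 varied. Gene values sum all transcripts, so the long and the short, activity-induced form of Homer1 were not separated.

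Interneuron and neuropeptide genes had no common direction. Slc32a1, the vesicular GABA transporter, chosen after its values were seen, was at 109, 86.9 and 29.4 TPM at DIV3 and at 884, 694 and 40.7 TPM at DIV10, and was not called (2.15, SE 0.93, adjusted p = 0.0624). Nos1, the neuronal nitric oxide synthase, fell from 21.4, 19.0 and 24.1 TPM to 4.24, 3.19 and 5.56 TPM (-2.10, SE 0.27, adjusted p = 1.75e-07). Culture 3 was thus far below the other cultures for Slc32a1 at DIV10 but not for Nos1. Of 15 interneuron genes 2 rose and 2 fell, which became 5 and 1 without culture 3 of DIV10, 0 and 2 without culture 1 or culture 2 of DIV10, and 2 calls in all without any 1 DIV3 library. Of 17 genes for neuropeptides and dense core vesicles 2 rose and 2 fell. In both lists these shares were below those of all genes tested, 17.9% and 22.4%. Chgb, a granin that packs peptides, went from 271, 311 and 206 TPM to 753, 704 and 657 TPM (1.44, SE 0.39, adjusted p = 0.00361), and Pcsk2, a prohormone convertase, rose by 1.94. Vgf and Scg2, activity-regulated granins, fell by 2.42 and 1.78, with adjusted p of 0.04 and 0.0342. Vgf lost its call without any 1 of the 6 libraries, and Scg2 without culture 2 or culture 3 of DIV10 or culture 1 or culture 3 of DIV3. The calls in this list numbered 2 without culture 2 of DIV10 or culture 1 or culture 3 of DIV3, and 7 in the blocked fit of the 6 libraries.

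**Figure D3:**
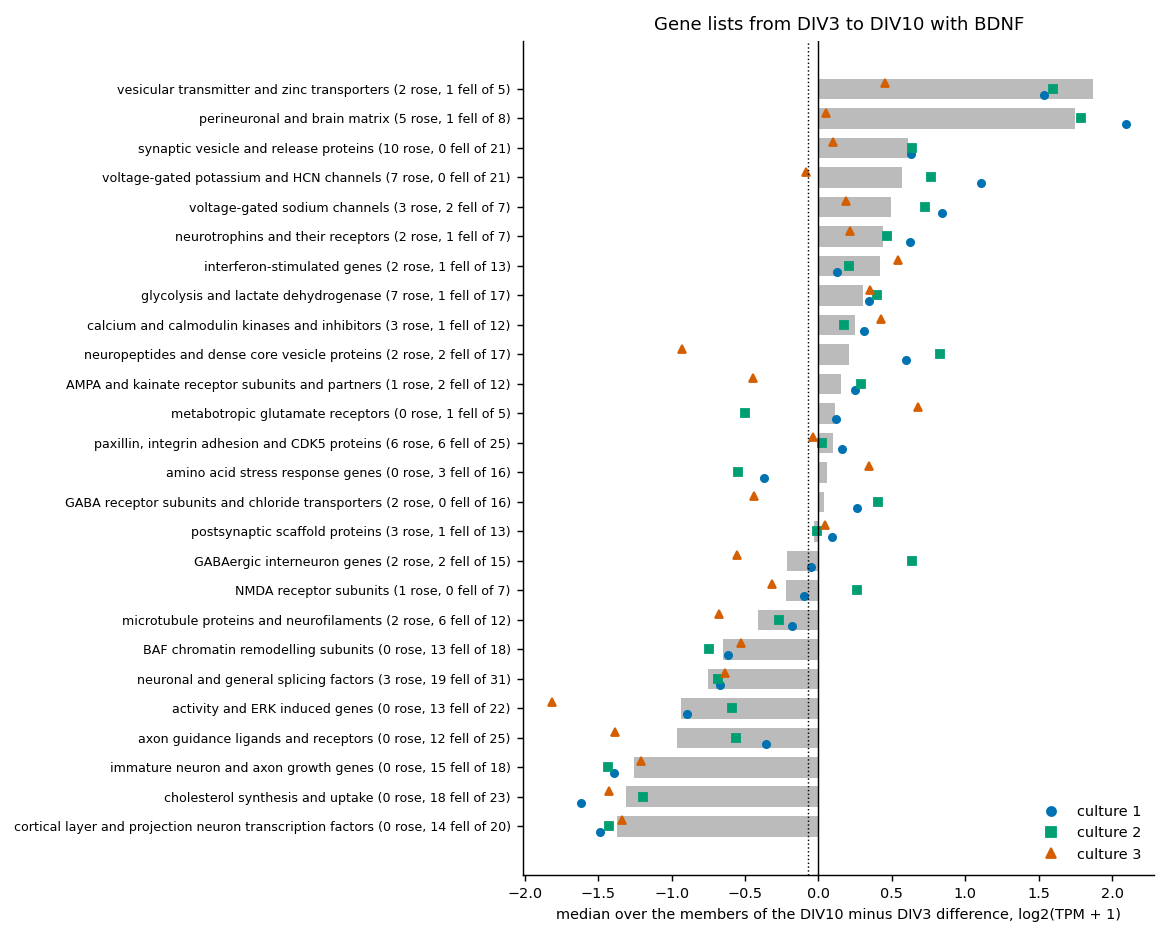
Median log2(TPM + 1) difference between DIV10 and DIV3 over the members tested of each of 26 pathway lists (bars), with the median within each of cultures 1, 2 and 3 (points) and the median of all genes tested (dotted line at -0.069). The vesicular transmitter and zinc transporters have the highest median, 1.87, and the cortical transcription factors the lowest, -1.38.

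Genes induced by activity and by ERK fell in 13 of 22, against 22.4% of all genes tested, with none rising and a median of -0.94. Egr2, a zinc finger transcription factor, was at 136, 31.2 and 102 TPM at DIV3 and at 1.13, 1.05 and 1.16 TPM at DIV10, 80.5 times lower by the means (-5.18, SE 0.41, adjusted p = 1.1e-11). This was the largest fall of any gene tested. Egr1, the founding member of the family, went from 1257, 503 and 1144 TPM to 63.7, 73.6 and 161 TPM (-3.29, SE 0.54, adjusted p = 9.03e-06). Dusp6, a phosphatase of ERK, chosen after its values were seen, went from 583, 289 and 788 TPM to 88.7, 81.5 and 96.0 TPM (-2.51, SE 0.52, adjusted p = 0.00023). Culture 2 was the lowest at DIV3 for each of these genes, and the groups did not overlap. Without the DIV3 library of culture 3, and in cultures 1 and 2 alone, 7 of the 22 fell. In the SC siRNA cultures without BDNF the median of this list over the same span was 0.95, in the opposite direction.

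The same time span was then compared with and without BDNF, which asks whether the change over time differed with the neurotrophin. The difference of the changes was called for 16 genes, 0.112% of those tested, all with a more negative change with BDNF in the fit of all libraries, and 448 genes had an unadjusted p under 0.05. With BDNF, 14 of the 16 fell and none rose, and without BDNF 7 of them rose and 1 fell. Of all genes tested, 22.4% fell and 17.9% rose with BDNF, and 16.1% rose and 19.1% fell without it. The 16 were picked by the difference itself, which favours falls with BDNF and rises without it. Their counts therefore follow in part from the selection and cannot be set against these shares. Egr2 without BDNF was at 0.688, 0.911 and 2.09 TPM at DIV3 and at 2.40, 1.37 and 2.53 TPM at DIV10, and the difference of its changes was -5.69 (SE 0.58, adjusted p = 6.1e-08). Nab2, a corepressor that binds EGR proteins, was at 124, 77.3 and 113 TPM at DIV3 and at 24.1, 23.8 and 52.4 TPM at DIV10 with BDNF. Without BDNF its levels were 17.4, 19.0 and 20.2 TPM at DIV3 and 45.9, 65.7 and 48.7 TPM at DIV10, so that the difference was -3.13 (SE 0.40, adjusted p = 9.73e-06).

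Arc, a synaptic protein made on activity, was at 272, 80.9 and 208 TPM at DIV3 and at 48.6, 89.6 and 49.7 TPM at DIV10 with BDNF. These groups overlapped through culture 2, and the fall of 1.45 (adjusted p = 0.0136) was lost without culture 1 of DIV10, without culture 1 or culture 3 of DIV3, and in the blocked fit of the 6 libraries. Without BDNF, Arc was at 4.49, 4.17 and 6.58 TPM at DIV3 and at 167, 37.8 and 51.2 TPM at DIV10, and the difference of the changes was -4.99 (SE 0.67, adjusted p = 2.67e-05). Egr1 without BDNF went from 39.6, 49.1 and 64.3 TPM to 243, 236 and 121 TPM, with a difference of -5.20 (SE 0.76, adjusted p = 0.000126). At DIV10 the levels of Arc overlapped with and without BDNF, and at DIV3 they were far apart. Peg10, a gene derived from a retrotransposon, was at 1077, 273 and 1048 TPM at DIV3 with BDNF, and at 38.0 to 60.2 TPM at DIV3 and 29.7 to 75.4 TPM at DIV10 without it. It fell to 53.6, 39.9 and 43.2 TPM at DIV10 with BDNF, and the difference was -3.92 (SE 0.64, adjusted p = 0.000978).

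Among the others, Egr4, of the EGR family, and Cpne7, a calcium-dependent membrane-binding protein, were not called for the change with BDNF itself (-0.88 and -0.0067). Egr4 without BDNF went from 2.83, 3.34 and 2.57 TPM to 80.1, 61.8 and 27.0 TPM. The fall with BDNF and the difference of the changes share the same 6 libraries and are not independent of each other. The same holds for the change without BDNF and its 6 libraries. The number called was 6 without culture 2 of DIV10 with BDNF or culture 3 of DIV3 without BDNF, 7 without culture 1 of DIV3 with or without BDNF, 8 without culture 1 of DIV10 without BDNF, 9 without culture 2 of DIV3 without BDNF, and 10 without culture 1 of DIV10 with BDNF or culture 6 of DIV10 without it. Blocked on the culture number, the count was 0 in a fit of these 12 libraries and 42 in a fit of 46 culture libraries. Without culture 3 of DIV10 with BDNF, 4 of 17 had a more positive change with BDNF, as did 1 of 8 without culture 1 of DIV10 without BDNF, 3 of 39 without a filter on low values, and 3 of the 42. In the blocked fit of the 12 libraries the adjusted p of the difference was 0.0759 for Egr1, 0.104 for Egr2 and Nab2, and 0.291 for Arc, with values of -5.33, -5.34, -3.06 and -5.09.

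**Figure D4:**
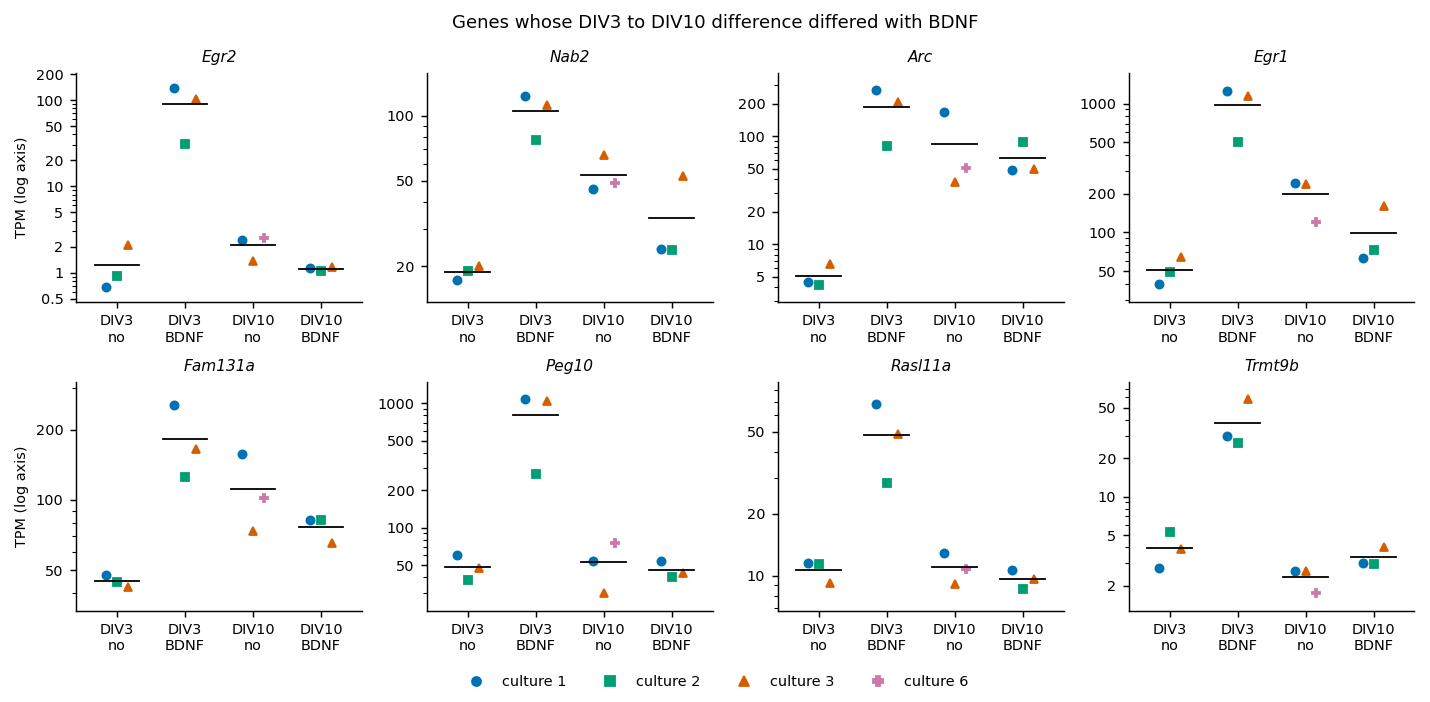
Level (TPM, log axis) of 8 of the genes whose change from DIV3 to DIV10 differed with and without BDNF, with 1 point per library and the group mean as a line. At DIV3 the libraries with BDNF lie above those without it, and at DIV10 Egr2 is at 2.53 TPM or less in all 6 libraries.

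The promoters of 3 of these genes are shown as examples, searched for short motifs. A CArG box is the site of serum response factor and TGACG is the core of a CREB site. The windows are the 250 bases before the annotated start (RefSeq, GRCm38.p6), on the gene's strand, and capitals mark the motifs found on either strand. That of Egr2 is chr10:67537619-67537868 (plus strand), the window with most matches among its 5 annotated starts. Egr4 is at chr6:85513590-85513839 and Nab2 at chr10:127666704-127666953, both on the minus strand.
Egr2: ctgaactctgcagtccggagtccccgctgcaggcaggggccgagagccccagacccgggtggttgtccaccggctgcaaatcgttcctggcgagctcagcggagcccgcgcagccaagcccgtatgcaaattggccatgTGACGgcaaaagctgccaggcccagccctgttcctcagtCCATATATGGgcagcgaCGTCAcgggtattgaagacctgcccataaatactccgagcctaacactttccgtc
Egr4: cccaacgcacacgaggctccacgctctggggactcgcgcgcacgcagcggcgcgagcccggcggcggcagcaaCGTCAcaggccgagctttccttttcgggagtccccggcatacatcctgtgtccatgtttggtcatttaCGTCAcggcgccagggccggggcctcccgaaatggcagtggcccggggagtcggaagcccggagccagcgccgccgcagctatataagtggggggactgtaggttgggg
Nab2: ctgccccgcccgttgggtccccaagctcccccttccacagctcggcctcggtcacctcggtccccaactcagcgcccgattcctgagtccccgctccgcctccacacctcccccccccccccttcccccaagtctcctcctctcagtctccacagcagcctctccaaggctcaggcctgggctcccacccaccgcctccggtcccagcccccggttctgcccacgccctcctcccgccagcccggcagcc
Egr2 held 1 CArG box and 2 TGACG sites in this window, Egr4 held 2 TGACG sites, and Nab2 held neither nor the EGR site GCGNGGGCG. Of all 32851 windows of this length, 1.47% held a CArG box, 17.8% TGACG and 4.7% the EGR site. Of the 16 genes, 8 had a window, and Arc, Egr1 and Peg10 were among those without one. Of the 8, 1 held a CArG box, 4 TGACG and 1 the EGR site. Of the 15 activity and ERK induced genes with a window, 2, 9 and 3 did. A gene was counted if any of its windows held the motif, with 12 windows for the 8 genes and 19 for the 15, whereas the shares of all windows count each window once, so these are not like for like. A match is a run of letters and was not tested as a site. Nab2 and 1700012D01Rik, which was also among the 16, start 420 bases apart in opposite directions and their windows share 81 bases.

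Of 7 genes for neurotrophins and their receptors 2 rose and 1 fell, where 17.9% and 22.4% of all genes tested did. Ntrk2, which encodes TrkB, was at 42.0, 32.6 and 19.8 TPM at DIV3 and at 99.1, 74.4 and 52.3 TPM at DIV10 (1.25, SE 0.36, adjusted p = 0.00511). It is also expressed by astrocytes, and without the DIV3 library of culture 3 its adjusted p was 0.0580 and 1 gene of the list was called. Ntrk3, the receptor for neurotrophin 3, went from 9.26, 9.86 and 9.62 TPM to 4.52, 4.35 and 4.79 TPM (-0.93, SE 0.22, adjusted p = 0.00115). The endogenous Bdnf transcript was at 3.74, 2.48 and 9.74 TPM at DIV3 and at 1.67, 1.32 and 1.51 TPM at DIV10. Although these levels did not overlap, Bdnf was not called (-1.17, SE 0.61, adjusted p = 0.125).

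Genes of sterol synthesis fell as a group. Of 23 genes of cholesterol synthesis and uptake 18 fell, against 22.4% of all genes tested, and none rose, with a median of -1.31. Cyp51, the lanosterol demethylase, went from 514, 443 and 349 TPM to 114, 131 and 50.8 TPM (-2.23, SE 0.40, adjusted p = 3.66e-05). The groups were well apart, and culture 3 was lowest at both times. Between 16 and 18 genes of the list fell when any 1 of the 6 libraries was left out. Summed over the list, the level was 6428, 5739 and 5897 TPM at DIV3 and 1839, 2162 and 1756 TPM at DIV10.

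Glycolysis genes rose in 7 of 17 and fell in 1, where 17.9% and 22.4% of all genes tested did. Aldoc, an aldolase that is also an astrocyte marker, rose by 2.79. Eno2, the neuronal enolase, went from 93.4, 103 and 162 TPM to 337, 313 and 341 TPM (1.5, SE 0.30, adjusted p = 0.000139). Ldha, a lactate dehydrogenase subunit, was the member that fell, by 0.84 (adjusted p = 0.0121), and lost its call without the DIV3 library of culture 3 (adjusted p = 0.0521) and in cultures 1 and 2 alone (0.0668). Of 16 genes of the amino acid stress response, which ATF4 drives, 3 fell, no larger a share than the 22.4% of all genes tested. Without culture 3 of DIV10, 6 fell. Asns, asparagine synthetase, went from 137, 148 and 212 TPM to 62.8, 61.8 and 91.2 TPM (-1.19, SE 0.32, adjusted p = 0.00355). Trib3, a target of this response chosen after its values were seen, was at 49.9 TPM in culture 3 at DIV10 and at 1.86 and 2.13 TPM in the other cultures.

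Of 31 splicing factors, on which the study of nuclear paxillin centres, 19 fell and 3 rose, with a median of -0.75. Of all genes tested, 22.4% fell and 17.9% rose. Khdrbs3, a STAR family RNA-binding protein, went from 22.5, 22.4 and 32.4 TPM to 7.21, 8.03 and 8.75 TPM (-1.56, SE 0.19, adjusted p = 1.08e-07). Elavl2, a neuronal Hu protein, went from 12.9, 12.6 and 18.2 TPM to 4.90, 4.35 and 3.84 TPM (-1.52, SE 0.28, adjusted p = 5.12e-05). In the other direction, Mbnl2, a muscleblind protein that drives postnatal exon choices, went from 1.69, 1.90 and 2.03 TPM to 5.81, 5.78 and 13.6 TPM (1.61, SE 0.24, adjusted p = 2.4e-06), and Qk, which is abundant in glia, rose by 1.23. U2af2, the large subunit of the factor that recognises the polypyrimidine tract, was chosen after its values were seen and fell from 153, 144 and 136 TPM to 95.7, 101 and 103 TPM (-0.53, SE 0.13, adjusted p = 0.00129). The levels of Khdrbs3, Elavl2, Mbnl2 and U2af2 were apart between times, and that of Mbnl2 at DIV10 was highest in culture 3.

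Subunits of the BAF chromatin remodelling complex fell in 13 of 18, against 22.4% of all genes tested, with none rising and a median of -0.65. Ss18l1 (CREST), a subunit of the neuronal complex, went from 60.5, 70.2 and 90.4 TPM to 24.5, 23.7 and 32.5 TPM (-1.41, SE 0.19, adjusted p = 3.74e-07). Smarcc1, a core subunit of progenitors, fell by 1.29. In a fit of only the 6 libraries, 8 subunits fell.

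Paxillin and its adhesion partners had a median near that of all genes, 0.097, with 6 of 25 rising and 6 falling. The shares of all genes tested, 17.9% and 22.4%, were not far from these. Pxn was at 8.05, 12.3 and 7.98 TPM at DIV3 and at 9.82, 11.6 and 15.9 TPM at DIV10. The groups overlapped, and Pxn was not called (0.37, SE 0.22, adjusted p = 0.191). Itgav, the integrin alpha V chain, went from 10.4, 7.33 and 5.66 TPM to 30.6, 19.1 and 15.2 TPM (1.34, SE 0.29, adjusted p = 0.000364), and Tln1, talin, which couples integrins to actin, rose by 1.04. Cdk5r1, the p35 activator of CDK5, went from 2034, 1511 and 1858 TPM to 680, 618 and 781 TPM (-1.37, SE 0.24, adjusted p = 2.49e-05). Arhgef7, a Rac exchange factor of adhesions, fell by 0.97.

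In the extracellular matrix of the brain 5 of 8 genes rose and 1 fell, where 17.9% and 22.4% of all genes tested did. Tnc, the tenascin of the embryonic brain, went from 37.9, 51.4 and 39.9 TPM to 7.24, 4.72 and 11.5 TPM (-2.38, SE 0.33, adjusted p = 7.94e-07). Bcan, brevican, a proteoglycan of mature matrix, went from 189, 223 and 75.9 TPM to 958, 1007 and 368 TPM (2.26, SE 0.49, adjusted p = 0.000379), and Tnr, another tenascin, rose by 1.80. The 5 rises became 2 in a fit of only the 6 libraries, 3 in that fit with the block and 3 without culture 1 of DIV10, and the list's median difference was 2.09, 1.79 and 0.049 in cultures 1, 2 and 3. Interferon-stimulated genes gave 2 rises and 1 fall in 13, below the shares of all genes tested, 17.9% and 22.4%. The number of calls was 0 without culture 1 of DIV10, and 1 without culture 2 of DIV10 or culture 2 or culture 3 of DIV3. It was 5 without culture 3 of DIV10 and 7 in the blocked fit of the 6 libraries.

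Outside the lists, the largest falls with a level of at least 5 TPM included Inhba, Lipg, Peg10 and Slc26a7. Inhba, an activin subunit, went from 93.9, 121 and 155 TPM to 3.08, 3.89 and 6.84 TPM (-4.50, SE 0.80, adjusted p = 3.16e-05). Slc26a7, an anion transporter, went from 12.6, 11.6 and 14 TPM to 0.0689, 0.140 and 0.0952 TPM (-3.64, SE 0.35, adjusted p = 8.17e-10). Both genes were apart between the times in every culture. Inhba also fell without BDNF, by 4.25, and the difference of its changes was not called.

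The 4 DIV5 libraries place these changes in time. From DIV3 to DIV5, 1696 genes rose and 813 fell (11.9% and 5.71%), and from DIV5 to DIV10, 956 rose and 2611 fell (6.71% and 18.3%). These comparisons share libraries with each other and with the one between DIV3 and DIV10. The split depended on the scaling: with median ratio size factors, which moved the median of all genes from 0.096 to -0.0053 and from -0.15 to 0.024, the share of calls that rose went from 67.6% to 49.0% before DIV5 and from 26.8% to 54.6% after it. With the culture number as a block in the libraries compared, 1475 genes were called before DIV5, against 2509, and 0 after it, against 3567, where 4222 had an unadjusted p under 0.05. The former count was 1537 and 1552 without culture 1 or culture 3 of DIV3, and 1574 and 1421 without culture 2 or culture 4 of DIV5. The latter was 2116 and 2019 without culture 1 or culture 2 of DIV10.

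Egr2 was at 3.80, 3.13, 2.53 and 5.10 TPM in cultures 1 to 4 at DIV5, so that most of its fall came before DIV5 (-4.08, SE 0.38, adjusted p = 6.1e-09). Cyp51, at 125, 125, 190 and 93.3 TPM, and Robo1, at 1.92, 2.21, 2.46 and 2.12 TPM, also fell before DIV5, by 1.73 and 2.23, and were not called after it. The level of Neurod1 was 19.1, 26.7, 33.4 and 20.6 TPM at DIV5, down by 2.05 from DIV3. These 4 genes were thus below their DIV3 levels in every DIV5 library, although Cyp51 in culture 3 (190 TPM) was still above every DIV10 level. Others changed later. Sox11 was at 886, 834, 1649 and 1228 TPM at DIV5, which did not pass the test against DIV3 (-0.64, adjusted p = 0.15), and fell by 2.38 from there to DIV10. Camk2a was at 50.1, 25.1, 39.7 and 16.3 TPM at DIV5 and rose by 3.00 after it, and Kcnc4, at 10.5, 10.8, 13.8 and 10.6 TPM, rose by 1.77. Slc17a6 and Slc17a7 differed in this respect: VGLUT2 was already at 4.67, 4.12, 14.3 and 2.71 TPM at DIV5, whereas VGLUT1 was at 283, 136, 199 and 113 TPM, within its DIV3 range, and rose by 2.14 after DIV5. The myelin gene Mag was at 11.2, 17.3, 0.657 and 44 TPM at DIV5, above every DIV3 level, and differed widely between cultures.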

How the data were processed

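RNA of primary mouse cortical cultures was sequenced on an Illumina NovaSeq6000 (paired-end 150). Per the labels and the methods of the study, the authors aligned reads with STAR 2.7.10 to GRCm38.p6 and estimated abundance with RSEM 1.3.3. They deposited TPM for each of 39756 genes in 48 libraries, without pooling replicates, and 0 columns were left without a sample. The depth of each library is not given by the TPM, and the number of libraries limits the precision.

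TPM were analysed as log2(TPM + 1) with limma 3.58.1 (lmFit, contrasts.fit and eBayes with a trend) in R 4.3.3, in 1 fit of the 13 groups of 48 libraries, over 14250 genes (mean over the libraries of 1 TPM or more), and p-values were adjusted by Benjamini-Hochberg and called under 0.05. Figures and sequences used Python 3.11.15, pandas 2.3.3, numpy 2.4.6 and matplotlib 3.10.9. Groups come from the labels. The steps were tested on simulated data. The deviations of the libraries numbered 1, 2 and 3 at DIV3 correlated with those of the same number at DIV10 at 0.487, 0.301 and 0.540. All were above 0.1, so the culture number, which the labels give, was taken to pair them and was used as a block in an alternative. Culture 2 at DIV10 correlated more with culture 1 at DIV3 (0.406) than with its own number. Between culture 3 and the others the values ran from -0.494 to -0.287. They thus set culture 3 apart and do not show that cultures 1 and 2 are paired by number. Deviations are taken from the group mean, so these values are not independent.

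The members, the 37 gene lists and the tests were chosen with earlier results of these data known. Named genes are Pxn, Bdnf, Ntrk2, Snap25 and Grin1, up to 2 called members each way per list without overlap between the groups (or its most abundant member), the 8 largest rises and falls, and the 4 genes with the lowest interaction p, 98 in all. Others were chosen after their values were seen. Mitochondrial transcripts, a list of RNA quality, were not analysed here, and some genes that the rule names are not reported here. Promoter windows and gene names come from RefSeq, GRCm38.p6, where all 519 named and listed genes matched. Alternatives were another pseudocount and filters, median ratio scaling, fits of the groups compared, blocks, and leaving out libraries.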

Additional observations from a re-analysis of the deposited data

Results flagged for a closer look

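At DIV5, where cultures 1 to 4 gave 4 libraries, 95 named genes were searched for an outlying library. In 21 the gap of a library to the nearest other, as a share of the range, exceeded Dixon's 95% critical value. For a single gene with normally distributed values, chance gives this in about 1 of 20. The genes were read in the same 4 libraries and are not independent, so their count cannot be set against that rate. In 16 of the 21 the library was that of culture 3. Its levels were the highest of the 4 for the neuronal genes Tubb3 (1677 TPM), Map2 (202 TPM), Cd24a (2729 TPM), Neurod6 (1436 TPM), Scn3a (20.3 TPM), Kcnc4 (13.8 TPM), Slc17a6 (14.3 TPM), Nos1 (14.6 TPM), Epha3 (7.81 TPM), Ss18l1 (60.2 TPM) and Arhgef7 (52.4 TPM). The same held for Inhba (108 TPM), Nab2 (70.2 TPM), Ldha (221 TPM), Stat2 (60.7 TPM) and Slc26a7 (4.17 TPM). In the other cultures the highest were Bdnf in culture 1 (8.81 TPM) and the collagens Col1a1 (30.9 TPM) and Col3a1 (9.15 TPM) in culture 2, and the lowest were Elavl2 in culture 1 (8.30 TPM) and Shisa9 in culture 4 (4.60 TPM). Culture 3 at DIV5 also had the lowest sums of astrocyte markers (1514 TPM, against 4659 to 6869 TPM) and of oligodendrocyte precursor markers (1660 TPM, against 7545 to 10421 TPM), and the part of these in its levels was not tested.

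Among the named genes the change from DIV3 to DIV10 differed with and without BDNF, by the test of the difference itself, for Egr2 (-5.69), Egr1 (-5.20), Arc (-4.99), Peg10 (-3.92), Nab2 (-3.13) and Slc26a7 (-2.25), all on the log2 scale and lower with BDNF. The difference for Slc26a7 was not called in 14 of 19 alternatives, with adjusted p up to 0.53.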

How the results depend on the processing

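Of the 94 named genes that were called, 64 were called under each of the 15 alternatives for the change from DIV3 to DIV10, and all 94 kept their direction. Most were named because their DIV3 and DIV10 libraries did not overlap. For those, leaving out libraries could not turn the direction, so the kept direction follows from how they were chosen. The number called, 5745, was 3132 in a fit of only the 6 libraries, 4332 to 6043 when 1 library was left out, 5297 with the culture number as a block in the 6 libraries, where Arc, Scn3b, Shisa9 and Sorcs1 lost their call, and 7307 with the block in 46 libraries. Grm2, which was not called, changed sign, from a difference of 0.10 to -0.051 without culture 3 of DIV10, -0.036 without culture 3 of DIV3 and -0.19 in cultures 1 and 2 alone, and reached 0.30 without culture 2 of DIV3. The 16 calls for the difference with and without BDNF became 39 without a filter on low values, 5 in a fit of the groups compared, 0 with the replicate block there (664 genes had an unadjusted p under 0.05) and 42 with the block in 46 libraries, and 6 to 21 when 1 library was left out. From DIV3 to DIV5 the 2509 calls became 1397 in a fit of the groups compared, 1475 with the replicate block there and 1421 to 3471 with 1 library left out. From DIV5 to DIV10 the 3567 calls became 1013, 0 and 2019 to 4834 in the same settings. The cause of these changes was not tested. Of 36 lists, 12 kept a number of calls within 1.5 times under each alternative. The depth of each library is not given by the TPM, and 3 libraries a group limit the precision.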
